A study of Homo sapiens with 23 samples.

Results

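SVA-Ds are the members of subfamily D of the SINE-VNTR-Alu (SVA) retrotransposons. They were taken from the study's list of de-repressed SVAs as the intervals whose name begins SVA_D and that lie on chromosomes 1 to 22, X or Y of hg19. The list holds 751 intervals, 245 of them SVA-Ds, and 196 SVA-Ds met the rule. The other 49 lie on other contigs and were not analysed here. The study had chosen the list in induced pluripotent stem cells, as SVAs without H3K9me3, the histone mark of heterochromatin. The 439 SVAs of other subfamilies on the same chromosomes, 190 of them SVA-Fs, served for comparison.

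The cells were NCCITs, a human embryonal carcinoma line, and SCi-NCCITs, NCCITs that carry 2 constitutively expressed sgRNAs against SVAs and a dCas9-KRAB gene under a tetracycline-inducible promoter. The transgene was inserted with piggyBac and cells were selected with antibiotics. NCCITs without dCas9-KRAB gave 1 H3K9me3 ChIP-seq library. SCi-NCCITs were kept without doxycycline or given 2 µg/mL doxycycline for 72 hours. Each of these conditions gave 2 H3K9me3, 2 YY1 and 1 OCT4 ChIP-seq libraries and 3 RNA-seq libraries. All SCi-NCCIT groups, those without doxycycline included, carried the sgRNAs and the dCas9-KRAB gene. Doxycycline was not given to cells without the guides or without the transgene, so doxycycline itself and dCas9-KRAB cannot be told apart. The study states that these guides also target LTR5Hs, another family of transposons. LTR5Hs were not analysed here, so their part in the RNA changes near SVA-Ds was not tested. Nothing in the labels says that replicates were separate cultures, so the tests below measure the spread between these libraries, which may be technical.

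An SVA is a composite element that moves through an RNA copy with the proteins of LINE-1. From its 5′ end it holds a hexamer repeat, an Alu-like part, a GC-rich variable number of tandem repeats (VNTR), a part derived from an endogenous retrovirus and a poly-A tail. In induced pluripotent stem cells the study found most SVAs covered by H3K9me3. TRIM28 and SETDB1 place this mark after a KRAB zinc finger protein has bound the element. The KRAB domain of dCas9-KRAB recruits the same proteins to the site of a guide. YY1 is a zinc finger factor found at promoters and enhancers, and OCT4, made by POU5F1, is a core factor of pluripotent cells.

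Several SVA-Ds recur in the results. SVA_D_r870, on the minus strand of chromosome 11 near a start site of ASRGL1, carried peaks of all 3 antibodies. Its sgRNA1 site had no mismatch, and its sgRNA2 site differed from the guide by G16A, counted from 1 at the 5′ end of the guide. The GC content was 75.2% in the 121 bases around its YY1 summit of replicate 1 without doxycycline and 48.3% in the 300 bases that hold both guide sites. SVA_D_r153 lies in SLC30A6, SVA_D_r969 near ORAI1 and SVA_D_r539 in RMND1, and their sgRNA1 sites match the guide exactly. SVA_D_r170 was the only SVA-D with an OCT4 peak in the presence of doxycycline, and its sgRNA1 site carries G15A, counted in the same way.

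Many of the listed intervals are only the end of an insertion. Of the 196 SVA-Ds, 31 were shorter than 50 bp, and 28 of these were at least 80% A or T, with lengths of 11 to 43 bp. For 27 of the 28, a guide site lay outside the interval, at 161 to 307 bp (median 179 bp), which is the place of the poly-A tail. SVA_D_r40, an interval of 28 bp upstream of MYCL, is an example, with an exact sgRNA1 site 172 bp away. The H3K9me3 peaks that touched SVA-Ds with doxycycline had a median width of 1558 and 2002 bp, so a peak that touches such an interval reaches past it.

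The 196 intervals had a median length of 670.5 bp (quartiles 276 and 1125 bp, range 11 to 2022 bp). Of them 36 were under 200 bp, 105 were of 200 bp to under 1000 bp and 55 of 1000 bp or more. They lay in introns in 94 cases (48.0%), between genes in 79, within 1 kb of a transcription start site (TSS) in 17 and in exons in 6. Other SVAs were intronic in 44.9%. The nearest TSS of any annotated gene was a median of 6833.5 bp away (8009 bp for other SVAs). The median GC content of SVA-Ds was 54.3%, against 61.4% in other SVAs and 67.5% in SVA-Fs. Of the 65 SVA-Ds inside protein-coding genes whose strand could be read from a guide site, 18 had the strand of the host gene. SVA-Ds less than 2000 bp apart, which can share peaks, formed 181 loci.

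Guide sites, that is matches of at most 3 mismatches next to an NGG PAM, were inside 139 SVA-Ds (70.9%), against 54.2% of other SVAs and 38.4% of SVA-Fs. SVA-Ds held 135 elements with an sgRNA1 site, of which 113 matched exactly, 20 had 1 mismatch, and 2 had more. An sgRNA2 site was found in 120, of which 2 matched exactly and 107 had 1 mismatch. The same substitution, G16A, was in 118 of the 120 sgRNA2 sites (98.3%), and in 125 of 214 (58.4%) in other SVAs. In SVA-Fs, 56 of 68 sgRNA1 sites had 3 mismatches, with C18A in 65, C19T in 64 and C1A in 58. The sgRNA1 site had a nearly fixed place in SVA-Ds, with a median of 190 bases from it to the 3′ end of the interval (quartiles 185.5 and 191). The interval reached a median of 549 bases upstream of the site (quartiles 402 and 1224), so that length differed mainly on the side of the VNTR. No site lay inside 57 SVA-Ds, of which 38 had one within 2000 bp and 19 did not.

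H3K9me3 peaks were found at most SVA-Ds with doxycycline and at a varying minority without it. A peak is an interval that the authors called in 1 library at a 5% false discovery rate, and an element carried it when they shared at least 1 bp. In NCCITs without dCas9-KRAB, 5 of 196 SVA-Ds carried a peak (2.55%, exact 95% interval 0.833 to 5.85%). Without doxycycline, SCi-NCCITs had a peak at 75 (38.3%, 31.4 to 45.5%) in replicate 1 and at 19 (9.69%, 5.94 to 14.7%) in replicate 2. With doxycycline, the counts were 141 (71.9%, 65.1 to 78.1%) and 132 (67.3%, 60.3 to 73.9%). Both libraries with doxycycline thus exceeded both without it, and the 2 replicates without doxycycline stood far apart. The intervals cover counting error over elements only, and the read depth behind the peaks is unknown. The mean was 136.5 ± 6.36 SVA-Ds with doxycycline and 47.0 ± 39.6 without (SD, n = 2), a difference of 89.5 (exact permutation test over libraries, two-sided, p = 0.33). With 2 libraries against 2 this test cannot go below 0.33. The difference fell to 33 (p = 0.67, exact) when the summit of the peak had to lie inside the interval.

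Other SVAs had lower shares in both libraries with doxycycline. They had a peak in 32.3% and 7.52% without and in 50.1% and 35.3% with doxycycline. The share of SVA-Ds minus the share of other SVAs was 4.05 ± 2.65 percentage points without and 26.9 ± 7.22 points with doxycycline (SD, n = 2). This gap was 22.9 points wider with doxycycline (exact permutation test, p = 0.33), and 33.8 points when SVA-Ds were set against SVA-Fs alone (p = 0.33, exact). Among elements with a guide site only, the gap widened by 12.5 points. The lists of H3K9me3 peaks were not longer with doxycycline (123014 and 173423 peaks) than without (151492 and 181332).

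**Figure D1:**
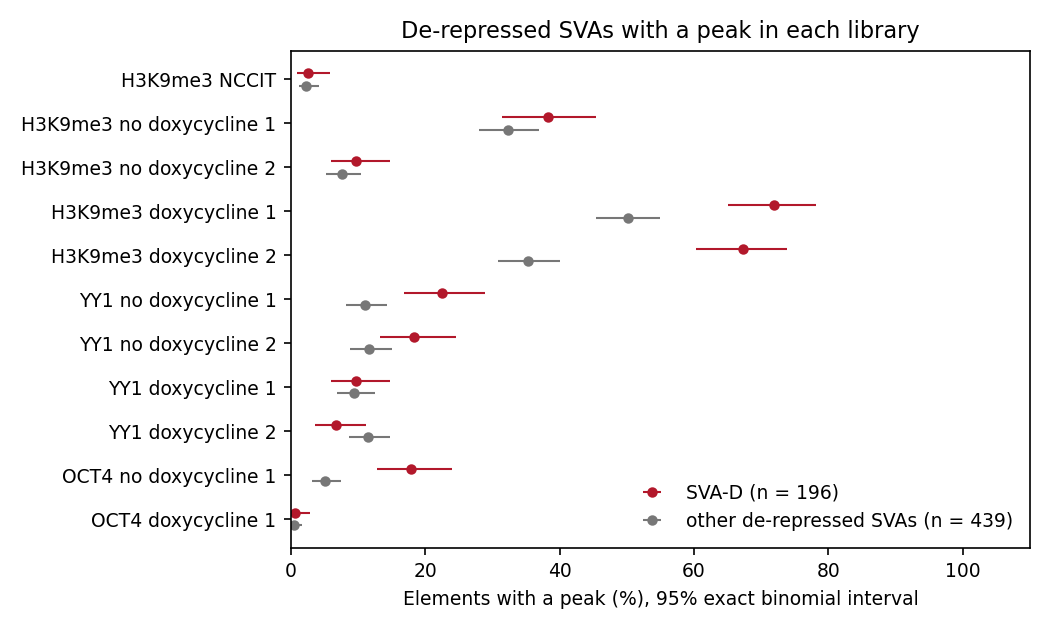
Share of de-repressed SVAs with a peak in each of the 11 libraries (x axis, percent, with exact 95% binomial intervals), for SVA-Ds and for other SVAs. SVA-Ds reached 71.9% and 67.3% for H3K9me3 with doxycycline, and 0.51% for OCT4 with doxycycline against 17.9% without.

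By the combination of peaks, 64 SVA-Ds (32.7%) gained H3K9me3, meaning that the 2 libraries with doxycycline had a peak there and the 2 without had none. Among other SVAs this was 72 of 439 (16.4%). Without the libraries of replicate 1 the count of gained SVA-Ds was 114, and with the summit required inside the interval it was 12. A further 40 SVA-Ds had a peak in every library but replicate 2 without doxycycline, and 16 had a peak in all 4. Both libraries with doxycycline had a peak at 121 (61.7%; 33.0% of other SVAs), 42 had none in the 4 libraries, and no SVA-D had a peak in both libraries without and in neither with doxycycline. SVA_D_r556 (3.50) and SVA_D_r597 (4.14) had a peak in replicate 1 without doxycycline only. The fold enrichment of a peak, its signal over the local background as deposited, had a median of 8.64 and 8.17 at the gained SVA-Ds in the 2 libraries with doxycycline. At the 40 SVA-Ds marked before doxycycline in replicate 1 the median was 4.79 in that library and 10.3 in replicate 1 with doxycycline, higher at 40 of 40. At the 16 marked throughout it was 5.41 and 11.1 in replicate 1 and 4.34 and 7.67 in replicate 2, higher at 14 of 16 in each.

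The 5 gained SVA-Ds with the highest fold enrichment in the weaker of their 2 libraries were SVA_D_r332, SVA_D_r331, SVA_D_r870, SVA_D_r57 and SVA_D_r40. SVA_D_r332 and the 16 bp interval SVA_D_r331 are ends of the same insertion (chr3:196346463-196346874) and shared their peaks, with 13.0 in replicate 1 and 11.9 in replicate 2. SVA_D_r870 had 11.8 and 14.6. SVA_D_r57, a tail of 18 bp at 23822 bp from the nearest coding TSS (LRRC8D), had 11.5 and 15.01, and SVA_D_r40 had 19.1 and 10.9. SVA_D_r153, the 493 bp element in SLC30A6, had no H3K9me3 peak without doxycycline and 8.62 and 8.93 with it. The 5 SVA-Ds with a peak in NCCITs, SVA_D_r1367, SVA_D_r834, SVA_D_r280, SVA_D_r514 and SVA_D_r604, had fold enrichments of 3.67, 3.30, 3.26, 4.04 and 6.98. All 5 were also marked in both doxycycline libraries, and the last 2 are tails of 17 and 22 bp.

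YY1 peaks were found at fewer SVA-Ds with doxycycline. Without it, 44 (22.4%) had a peak in replicate 1 and 36 (18.4%) in replicate 2, and with it 19 (9.69%) and 13 (6.63%). The groups did not overlap. The mean was 40.0 ± 5.66 without and 16.0 ± 4.24 with doxycycline (SD, n = 2), a difference of -24 (exact permutation test, two-sided, p = 0.33, the smallest possible). Other SVAs had a YY1 peak in 10.9% and 11.6% without and in 9.34% and 11.4% with doxycycline. The excess of SVA-Ds over other SVAs was 9.13 ± 3.37 points without and -2.20 ± 3.61 points with doxycycline (SD, n = 2), a difference of -11.3 points (p = 0.33, exact). With at least 50% of the interval covered it was -4.58 points, and the difference in SVA-Ds with YY1 was -15. The YY1 lists were longer with doxycycline (82005 and 115673 peaks) than without (56370 and 76098).

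A YY1 peak in both libraries without doxycycline was found at 30 SVA-Ds (15.3%, against 7.97% of other SVAs). The count was 12 when the peak had to cover at least 50% of the interval, and 50 with a peak in either library. Of these 30, 15 had no YY1 peak in either library with doxycycline, and all 15 had H3K9me3 in both. In 11 the peak was kept in both libraries, and 9 of these also had H3K9me3 in both with doxycycline. Where it was kept, the median fold enrichment was 10.0 without and 6.57 with doxycycline in replicate 1, and 7.80 and 5.36 in replicate 2, lower at 10 of 11 in each. These 11 include SVA_D_r82 and SVA_D_r170, whose YY1 summits all lay outside the interval. In replicate 1 without doxycycline, the summits at SVA_D_r30 and SVA_D_r539 lay 1253 and 1549 bp downstream of the sgRNA1 site. Whether the same peak was compared at each SVA-D was not tested. No SVA-D gained YY1 in both libraries.

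OCT4 was measured in 1 library per condition, with no replicate check. It had a peak at 35 SVA-Ds (17.9%, 12.8 to 23.9%) without doxycycline and at 1 (0.51%, 0.0129 to 2.81%) with it. For other SVAs the shares were 5.01% and 0.456%. The list with doxycycline was shorter over the whole genome (23352 peaks against 50775), and with the longer list reduced to its strongest 23352 peaks, 14 SVA-Ds had an OCT4 peak without doxycycline. Of the 34 that had OCT4 only without doxycycline, 32 had H3K9me3 in both libraries with it. POU5F1 RNA was 240, 177 and 171 CPM (counts scaled to the total of the library) without and 199, 170 and 170 CPM with doxycycline, and the groups overlapped (log2 fold change -0.12, adjusted p = 0.53, edgeR). YY1 RNA was 136, 142 and 141 CPM without and 132, 125 and 133 CPM with it (log2 fold change -0.10, adjusted p = 0.20, edgeR).

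YY1 in both libraries and OCT4 were found together at 20 SVA-Ds (10.2%, against 3.19% of other SVAs), and 19 of these had H3K9me3 in both libraries with doxycycline. In the order of their OCT4 fold enrichment, the highest were SVA_D_r870, SVA_D_r170, SVA_D_r589, SVA_D_r945, SVA_D_r82, SVA_D_r137, SVA_D_r369, SVA_D_r539, SVA_D_r35 and SVA_D_r30. SVA_D_r870 had YY1 fold enrichments of 10.2 and 9.21 without and 5.23 and 3.76 with doxycycline, and an OCT4 peak of 9.32 without and none with it. Its peak of 3.76 had the summit outside the interval. SVA_D_r82, in GON4L, was touched by YY1 peaks of 20.3 and 22.6 without and 7.45 and 8.0 with doxycycline, whose summits all lay outside the interval, at -651 to -586 bp from the sgRNA1 site. SVA_D_r30, near PPP1R8, had YY1 summits inside the interval at 9.08 in replicate 2 without doxycycline and at 3.54 and 3.83 with it. The peak that touched it in replicate 1 without doxycycline (57.3) had its summit 1253 bp downstream of the site, outside the interval, and is not compared with these. SVA_D_r589 in CDK14, SVA_D_r945, SVA_D_r137 in EIPR1 and SVA_D_r369 in AFF1 had no YY1 peak with doxycycline. SVA_D_r170 went the other way, with no H3K9me3 in any library, YY1 at 4.06 and 6.67 without and 6.86 and 10.3 with doxycycline (all 4 summits outside the interval), and OCT4 at 8.98 and 4.89. It is the element with G15A in its sgRNA1 site, and it had no sgRNA2 site. The part of the substitution in this was not tested.

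Peaks at SVA-Ds varied with the length of the interval. Of the 105 with 200 bp to under 1000 bp, 83 (79.0%) had H3K9me3 in each library with doxycycline, 36 in replicate 1 and 10 in replicate 2 without it, and 45 gained it. Of the 55 with 1000 bp or more, 33 already had a peak in replicate 1 without doxycycline and 3 in replicate 2, 36 and 23 had it with doxycycline, and 2 gained it. Of the 36 under 200 bp, 17 gained it. YY1 without doxycycline was found at 31 and 27 of the middle class, at 10 and 7 of the longest and at 3 and 2 of the shortest, and OCT4 at 24, 6 and 5. Median lengths were 535.5 bp for gained SVA-Ds, 672.5 bp for those with YY1 in both libraries, 645 bp for those with OCT4 and 983 bp for the 39 without a peak in any of the 11 libraries. Of other SVAs, 42.8% had no peak in any library, against 19.9% of SVA-Ds. The 39 SVA-Ds without a peak had a median GC content of 59.8%, against 54.3% for all SVA-Ds. Reads whose mapping quality was not over 10 had been dropped, so a missing peak can also mean that reads could not be placed. The part of mapping in these shares was not tested. The 28 A- or T-rich tails gained H3K9me3 in 15 cases but had YY1 in both libraries in 1 and OCT4 in 3. The other 168 SVA-Ds gained it in 49, with YY1 in 29 and OCT4 in 32.

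**Figure D2:**
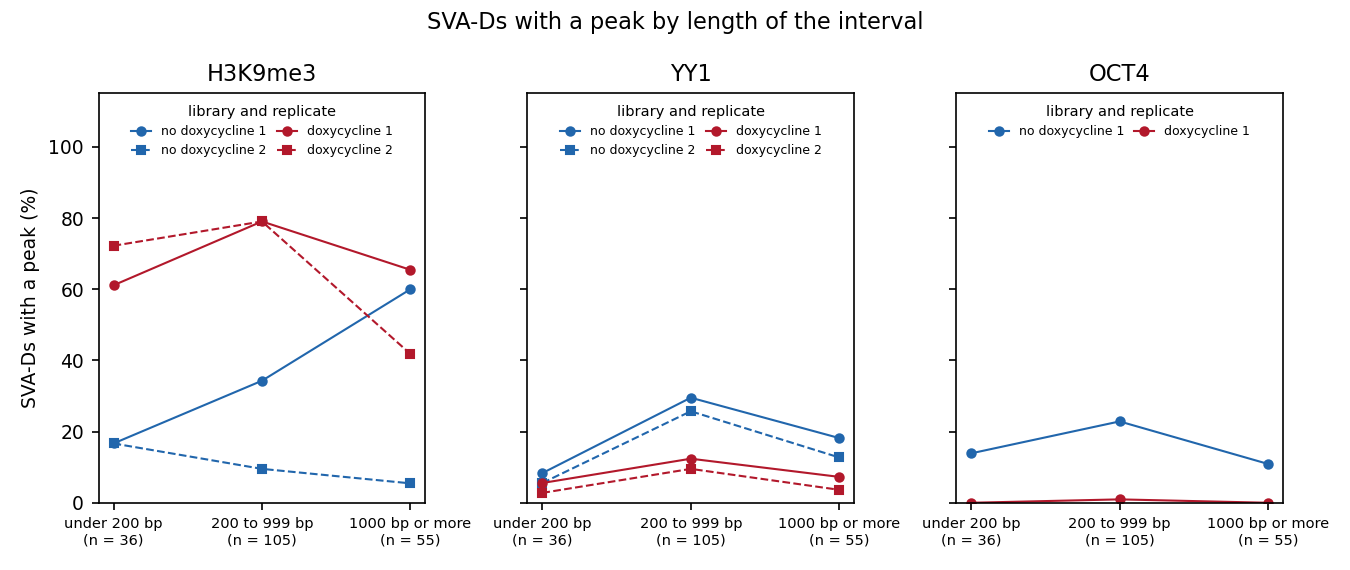
Share of SVA-Ds with a peak (y axis, percent) by length of the interval (x axis), for H3K9me3, YY1 and OCT4, with each line a library. H3K9me3 with doxycycline was at 79.0% in both libraries for the middle class, whereas at 1000 bp or more the library of replicate 1 without doxycycline lay above replicate 2 with it, at 41.8%.

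Within the middle class, guide sites went with the mark. Of the 90 SVA-Ds of the middle class with a site, 77 and 82 had H3K9me3 with doxycycline and 45 gained it. Of the 15 without a site, 6 and 1 had it and 0 gained it, and without doxycycline 6 and 0 had it. At 1000 bp or more, 31 and 23 of 47 with a site had it with doxycycline, and 2 gained it. Of the 8 that long without a site, 5 and 0 had it. All SVA-Ds that gained H3K9me3 (64), had YY1 in both libraries without doxycycline (30) or had OCT4 (35) lay within 2000 bp of a guide site. The 19 without a site in reach had H3K9me3 in 4 and 1 with doxycycline, none of them had YY1 in both libraries or OCT4, and 14 had no peak in any library. Of these 19, 3 are masked in the reference, and the 4 SVA-Ds of chromosome Y, which include them, had no peak. By position, YY1 in both libraries was found at 18 of 94 intronic (19.1%) and 7 of 79 intergenic SVA-Ds (8.86%), and OCT4 at 19 (20.2%) and 9 (11.4%). H3K9me3 with doxycycline was found at 71 and 69 intronic and 55 and 47 intergenic SVA-Ds. These differences between classes of elements were not tested, since elements are not replicates of a condition.

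The summits of the factors lay at different places along the element, and many lay in the DNA beside it. At all SVA-Ds, 32 of 44 and 28 of 38 YY1 summits without doxycycline lay inside the interval. For OCT4 without doxycycline it was 21 of 38. For H3K9me3 with doxycycline it was 89 of 156 in replicate 1 and 35 of 157 in replicate 2. Positions were counted from the 5′ end of the sgRNA1 site along the SVA-D, so that negative values lie toward the VNTR. YY1 summits without doxycycline had a median of -300 bp in replicate 1 (quartiles -380 and -233) and -291 bp in replicate 2. With doxycycline the medians were -304 and -276.5 bp. The 34 OCT4 summits without doxycycline had a median of 40.5 bp, and 16 of them lay from 100 bp upstream to 150 bp downstream of the reference point. At SVA-Ds with both, the OCT4 summit was a median of 249 bp downstream of the YY1 summit of replicate 1 (downstream at 15 of 22) and 286 bp downstream of that of replicate 2 (18 of 21). H3K9me3 summits with doxycycline had medians of -423 bp in replicate 1 and -43 bp in replicate 2, and the latter lay on either side of the site (quartiles -540.5 and 438.75). In SVA_D_r870 the YY1 summit of replicate 1 was at -383 and that of replicate 2 at -313, and the OCT4 summit was at -27, just upstream of the sgRNA1 site.

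**Figure D3:**
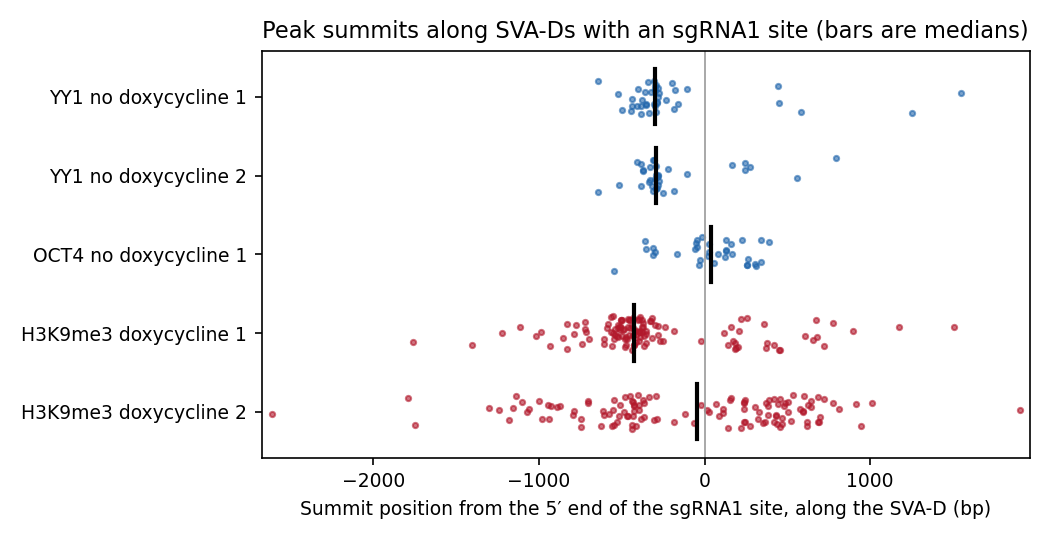
Summits (points, with bars at the medians) along SVA-Ds with an sgRNA1 site, in bp from the 5′ end of the site (x axis). YY1 and OCT4 are shown without and H3K9me3 with doxycycline, by library. Summits outside the interval of the SVA-D are included. Medians are -300 and -291 bp for YY1, 40.5 bp for OCT4, and -423 and -43 bp for H3K9me3 in replicates 1 and 2.

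Motif letters were searched on both strands. AANATGGC, the core of the YY1 motif, was in 3 SVA-Ds (1.53%) and 1.59% of other SVAs. It was in 13.5% of the 392 flanks beside SVA-Ds, each as long as its SVA-D. ATGCNAAT, the octamer of OCT4 with 1 base free, was in 0 SVA-Ds and in 8.93% of flanks. The shorter AANATGG, which AANATGGC contains, was in 5 SVA-Ds (2.55%), in 22.6% of other SVAs and in 47.4% of flanks, and ATGCAAA in 0 SVA-Ds and 14.5% of flanks. The match says only whether these letters stand in the reference sequence, and SVA-Ds and other SVAs differ in length. Base composition was not matched between SVA-Ds and their flanks. With the motif program HOMER, the study reported YY1 and OCT4 motifs as enriched in de-repressed over repressed SVAs. The letters searched here are a different measure, and repressed SVAs were not searched.

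RNA was compared for the gene with the TSS nearest to each SVA-D, on estimated counts summed per gene. The libraries held 14683468 to 47862394 counts on genes. Defining genes of the line were expressed, with mean CPM without doxycycline of 196 for POU5F1, 625 for SOX2 and 61.5 for NANOG. ZNF10, the source of the KRAB domain of many dCas9-KRAB constructs, was 10.0, 11.8 and 10.7 CPM without and 362, 374 and 459 CPM with doxycycline (log2 fold change 5.19, adjusted p = 5.59e-08, edgeR). Counts from the transgene and from the endogenous gene cannot be told apart here. Across 16371 genes tested, 2858 (17.5%) passed an adjusted p of 0.05 and 1389 (8.48%) passed it and were lower with doxycycline. Leaving out 1 library gave 1396 to 3259 genes that passed, with the lowest count without replicate 2 of doxycycline. The 182 genes nearest to SVA-Ds included 83 tested, of which 25 passed (30.1%), 23 of them lower and 2 higher. Their median log2 fold change was -0.13, against -0.0025 for all genes tested, and 60 of 83 (72.3%) were below 0, against 50.4% of all. The genes tested near SVA-Ds were also at higher levels, with a median of 39.0 CPM against 19.9. Of the 129 tested genes nearest to other SVAs, 34 passed, 25 of them lower, with a median of -0.11. Whether SVA-Ds and other SVAs differ in this was not tested.

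Most tested genes, and most lower ones, lay beside SVA-Ds with H3K9me3 after doxycycline. Of the 83 tested genes, 63 lay beside an SVA-D marked in the 2 doxycycline libraries, and 22 of these 63 passed, 21 of them lower. Of the 23 lower genes, 21 thus had such an SVA-D and 14 a gained one, while 9 had one with YY1 and 7 one with OCT4 without doxycycline. Of all genes tested, 17.5% passed and 8.48% passed and were lower. Near gained SVA-Ds, 15 of 33 tested genes passed, 14 of them lower (median -0.23 on the log2 scale). Near SVA-Ds with no H3K9me3 in the 4 libraries, 1 of 13 passed and 0 were lower (median 0.05). Near SVA-Ds with YY1 in both libraries, 9 of 19 were lower (median -0.31), and near those with OCT4, 7 of 16 (median -0.18). With neither factor, 12 of 53 passed, 10 of them lower (median -0.06). Of genes with a TSS within 10 kb of the SVA-D, 20 of 51 passed, and of those farther away 5 of 32. Beside intronic SVA-Ds 18 of 50 passed, and beside intergenic ones 4 of 21. With the nearest protein-coding TSS in place of any TSS, 44 of 142 genes passed and 42 of them were lower.

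**Figure D4:**
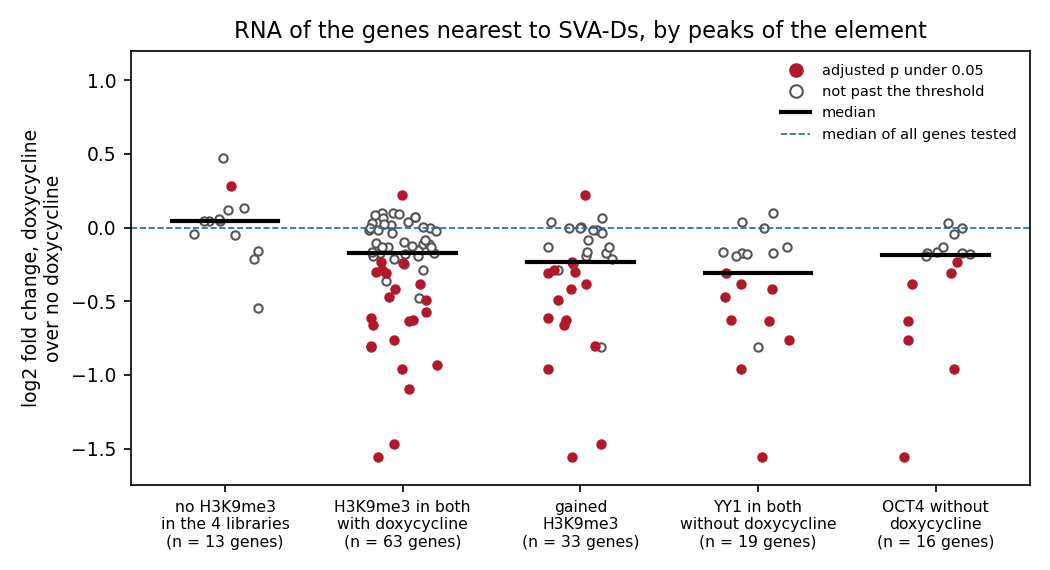
Log2 fold change of RNA with over without doxycycline (y axis) of the tested genes nearest to SVA-Ds, grouped by the peaks of the element (x axis). Each point is a gene, filled where it passed, and an SVA-D can be in several groups. The medians are 0.05 with no H3K9me3 and -0.23 for gained SVA-Ds, and the only filled points above 0 are SLC26A11 and FAM234A.

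ASRGL1, an asparaginase-like enzyme, is the nearest gene of SVA_D_r870, which lies 771 bp from a TSS of it. Its RNA was 255, 226 and 208 CPM without and 87.5, 72.6 and 73.5 CPM with doxycycline. All libraries with doxycycline were lower than all without (log2 fold change -1.56, SE 0.0949, adjusted p = 1.25e-05, edgeR). ORAI1, the pore of a store-operated calcium channel, lies near SVA_D_r969 and the tail SVA_D_r968, and was 85.9, 66.7 and 76.7 CPM without and 41.3, 38.5 and 37.8 CPM with doxycycline (-0.96, adjusted p = 1.36e-04, edgeR). RMND1, needed for mitochondrial translation, was 24.7, 33.1 and 33.4 CPM without and 17.7, 19.2 and 17.6 CPM with doxycycline (-0.76, adjusted p = 0.0019, edgeR). AFF1, a part of the super elongation complex, was 119, 156 and 145 CPM without and 89.9, 83.4 and 97.6 CPM with it (-0.64, adjusted p = 0.0029, edgeR). In none of these genes did the groups overlap, and for AFF1 and RMND1 the library of replicate 1 without doxycycline was the lowest of its group. How often the groups lie apart among all genes tested was not counted, here and below. NCAPG2, a subunit of condensin II, was 119, 118 and 114 CPM without and 87.0, 88.1 and 94.2 CPM with doxycycline (-0.38, adjusted p = 0.0019, edgeR).

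The same comparison was made for the other genes nearest to SVA-Ds with both YY1 and OCT4. TIAM1, an activator of the GTPase RAC1, was lower (-0.31, adjusted p = 0.021, edgeR). PPP1R8, CCT3, DTNB, PNPT1, EIPR1, DOCK4 and CDK14 did not pass, with log2 fold changes of -0.17, -0.13, -0.17, -0.19, -0.17, -0.18 and -0.01. PPP1R8 was 119, 124 and 112 CPM without and 106, 104 and 105 CPM with doxycycline (adjusted p = 0.057, edgeR), so its groups did not overlap although it missed the threshold. The 13 tested genes of this set were all below 0, but CDK14 turned above 0 with a replicate block and when some libraries were left out. Of all genes tested, 17.5% passed, 8.48% passed and were lower, and 50.4% were below 0. With the nearest protein-coding gene in place of any gene, 19 genes of SVA-Ds with both factors were tested. Of these, 10 passed, all lower, and 18 were below 0. Those farther away than an untested neighbour were looked up after their values had been seen. ARFGEF1, which activates ARF GTPases in the Golgi, was 164, 188 and 172 CPM without and 79.2, 84.9 and 95.6 CPM with doxycycline (-1.01, adjusted p = 6.33e-05, edgeR). GON4L was 212, 233 and 202 CPM without and 130, 124 and 143 CPM with it (-0.70, adjusted p = 3.17e-04, edgeR). THRAP3, a protein of mRNA processing, was at -0.25. The TSS of RAP1B lies 125922 bp from its SVA-D, SVA_D_r945. RAP1B (-0.14, adjusted p = 0.072, edgeR) and the coding gene nearest to SVA_D_r170 (0.12, adjusted p = 0.45, edgeR) did not pass, and the latter was the only one above 0. The groups overlapped in it, in CDK14 and in DOCK4. SLC30A6, a zinc transporter and the host of SVA_D_r153, was at -0.12 and did not pass (adjusted p = 0.29, edgeR).

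**Figure D5:**
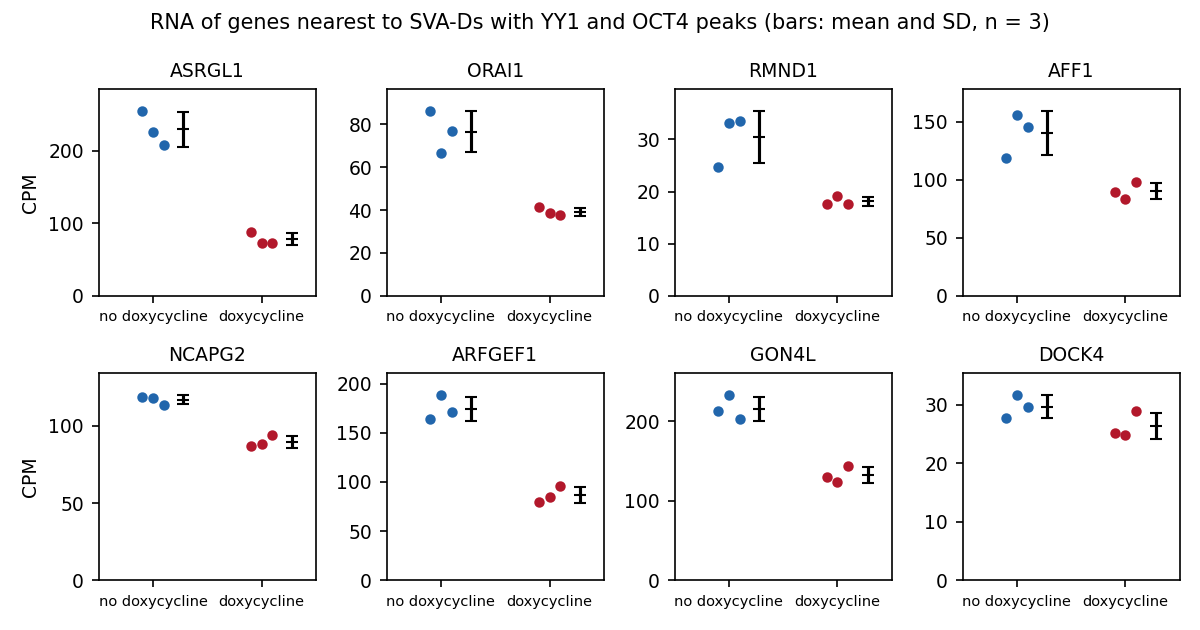
RNA in CPM (y axis from 0) of 8 of the 19 tested coding genes nearest to SVA-Ds with YY1 in both libraries and OCT4 without doxycycline, picked with their values known, with each point a library and the bars the mean and SD (n = 3). Among the 8 drawn, the points with doxycycline lie below those without in all but DOCK4, which did not pass. How often this holds among all genes tested was not counted.

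Lower genes were also found near SVA-Ds that did not have YY1 and OCT4 together. LRP4, a receptor of the neuromuscular junction, was 162, 164 and 149 CPM without and 84.4, 79.0 and 84.8 CPM with doxycycline (-0.94, adjusted p = 1.64e-05, edgeR), beside SVA_D_r857, whose H3K9me3 was 4.0 in replicate 1 without and 18.1 and 10.8 with doxycycline. MYCL, a member of the MYC family, was 18.6, 16.1 and 15.6 CPM without and 10.7, 9.13 and 8.74 CPM with doxycycline (-0.80, adjusted p = 0.0011, edgeR), with SVA_D_r40 at 10192 bp. MYBL2, a factor of the cell cycle, was 268, 268 and 251 CPM without and 181, 191 and 195 CPM with it (-0.47, adjusted p = 5.85e-04, edgeR). The groups did not overlap in any of these. ITGAX, an integrin of myeloid cells, was 3.54, 2.90 and 3.72 CPM without and 1.84, 1.42 and 1.49 CPM with doxycycline (-1.09, adjusted p = 0.0028, edgeR).

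CORO1A, an actin-binding protein of blood cells, had the largest decrease of the 25. It was 6.54, 5.65 and 4.48 CPM without and 1.04, 0.984 and 1.21 CPM with doxycycline (-2.34, adjusted p = 4.55e-05, edgeR). The SVA-D beside it, SVA_D_r1115, held no guide site (the nearest was 1344 bp away), was 72.1% GC and had H3K9me3 in replicate 1 of both conditions only, at 8.59 without and 8.67 with doxycycline. It had no YY1 or OCT4 peak. KDM6A, an H3K27 demethylase, was the other lower gene without H3K9me3 in both libraries (-0.30). The remaining lower genes were PALM2AKAP2 (-0.58), MROH1 (-0.62), PLEKHA4 (-0.66), SHISA5 (-0.42), NLRP2 (-0.50), RBBP9 (-0.30), CLDN4 (-0.62), ANGEL1 (-0.24), NR2C1 (-0.23), ENSG00000262304 (-1.47) and ENSG00000290928 (-0.29). The 2 higher genes were SLC26A11 (0.28), whose SVA-D held no guide site and had no peak, and FAM234A (0.22), whose SVA-D gained H3K9me3. The calls of SLC26A11, NLRP2, FAM234A, TIAM1, RBBP9, CLDN4, KDM6A, ENSG00000262304, ENSG00000290928, ANGEL1 and NR2C1 were lost in at least 1 of the fits that left out a library, and those of the other 14 genes were kept.

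Of 20 factors and H3K9me3 proteins listed for this comparison, all 20 were tested and 4 passed (20%, near the 17.5% of all genes), each lower with doxycycline. They were NANOG (-0.57), the YY1-related ZFP42 (-0.40), the HUSH subunit MPHOSPH8 (-0.66) and ZNF611 (-0.51), a KRAB zinc finger protein known to bind SVAs. TRIM28 was at -0.07 and SETDB1 at -0.10, and neither passed. The part of these genes in the peaks and RNA at SVA-Ds was not tested.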

How the data were processed

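Conditions came from the labels, and dose, time and guide sequences from the study's methods. Libraries without a replicate number were called replicate 1. The members and gene lists were chosen with earlier results of these data known. For ChIP-seq the authors trimmed reads with TrimGalore, aligned them with BWA MEM to hg19, dropped duplicates and reads whose mapping quality was not over 10, and called peaks per library at a 5% FDR; the peak caller is not given in the sources used here. The deposited lists give fold enrichment as a ratio and p- and q-values as −log10. For RNA the authors deposited estimated counts and TPM per transcript from kallisto. The estimated counts were summed per gene, rounded and tested by the quasi-likelihood method of edgeR 4.0.16 (R 4.3.3) after filterByExpr and TMM, with Benjamini-Hochberg adjustment over all genes. On simulated data, 80.51% of 195 genes given a log2 change of 1 were recovered among 16173, with 6.55% false calls. Replicate libraries differed by 7.43 to 14.6 chi-square units per gene. Guide and motif matches and overlaps were computed in Python 3.11.15 on GRCh37. Some sequences and a gene are not reported here.

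Named genes were all genes nearest to an SVA-D that passed, the nearest tested genes of SVA-Ds with YY1 and OCT4, ZNF10, a list of factors and SLC30A6. Named SVA-Ds were SVA_D_r153, the 10 with YY1 and the highest OCT4 fold enrichment, the 5 strongest gained and the 5 with a peak in NCCITs. Alternatives were DESeq2 1.42.0, other size factors and filters, a replicate block, leaving out each library, a −log10 q of at least 5, 50% coverage, extension by 500 bp, summits inside, 200 bp or longer, equal numbers of peaks, and protein-coding or 50 kb limits on the nearest gene. The 6 HiChIP samples were not analysed here, since the columns of their table could not be tied to conditions.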

Additional observations from a re-analysis of the deposited data

How the results depend on the processing

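Leaving out each ChIP-seq replicate number in turn gave 68 to 114 gained SVA-Ds, the highest without replicate 1, 36 to 44 with YY1 without doxycycline, an H3K9me3 difference of 66 to 113 and a YY1 difference of -25 to -23. A YY1 peak in either replicate was at 50 SVA-Ds, and 12 had one over at least 50% of the interval. OCT4 without doxycycline was at 22 SVA-Ds with a −log10 q of at least 5, 23 with 50% coverage, 21 with the summit inside and 14 with equal numbers of peaks. The count in NCCITs was 1 with the stricter q, 2 with 50% coverage, 11 with extension by 500 bp, 2 with the summit inside, 3 at 200 bp or more and 3 with equal numbers of peaks. With the summit inside, 12 SVA-Ds gained H3K9me3, its difference was 33 and its gap to other SVAs widened by 8.07 points (p = 0.67, exact, for both). The YY1 difference was -15 with 50% coverage, -19 with the summit inside and -29.5 with equal numbers of peaks. Alternatives added after the data had been seen gave a wider H3K9me3 gap by 16.9 points at 200 bp or more and by 12.5 points with a guide site only, and a YY1 gap of -4.58 points with 50% coverage. As 181 loci, 62 gained H3K9me3 and 30 had YY1. The causes of these changes were not tested.

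Leaving out each RNA library gave 1396 to 3259 genes in all, with the lowest without doxycycline-treated replicate 2, and 17 to 27 nearest genes, 16 to 25 of them lower, with a median of -0.16 to -0.11. Without no-doxycycline replicate 2 there were 1469 genes in all, 1748 without no-doxycycline replicate 3 and 1749 without doxycycline-treated replicate 1. With protein-coding TSSs there were 44 nearest genes, 42 of them lower. DESeq2 gave 2944 genes, 28 of them nearest. Of the 25 named nearest genes, 14 passed in every alternative and 11 were lost in at least 1, ANGEL1 with DESeq2, without the filter on low counts and with the block. None of the 25 changed sign. Signs changed for genes that did not pass: YY2 (0.0054 with DESeq2, 0.0013 without the filter, and -0.1549 to 0.1905 leaving out each library), CDK14 (0.0041 with the block, -0.0867 to 0.065), MORC2 (-0.0648 to 0.0555) and POU5F1 (-0.2141 to 0.0425, above 0 only without no-doxycycline replicate 1).

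RNA libraries with the same replicate number did not deviate together in every pair (r = 0.51, 0.0135 and 0.0499), so the numbers were not taken as pairs. With a replicate block 3316 genes passed, 28 of them nearest and 25 of those lower, with a median of -0.13; PNPT1 passed and ANGEL1 did not. Paired by replicate number, the H3K9me3 and YY1 differences stayed 89.5 and -24 (exact sign-flip p = 0.5). The lists give no depth, so weak peaks cannot be told from missed ones.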
